A study of Mus musculus with 10 samples.

Results

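The piRNA pathway and the enzymes that write, copy and remove DNA and histone H3K9 methylation were followed through a series of 10 single-colour mouse microarrays. The 35 genes were listed by name, and each was read from the probe that carried its symbol, taking the brightest where a gene had several. They were 35 of the 34821 gene names on the array, with 24 in the piRNA list and 11 in the methylation list, and the lists were read apart. The first experiment used germline stem (GS) cells, a culture of spermatogonia that keeps stem cell activity, labelled C57BL/6 and, in the study's methods, derived from a cross of C57BL/6 with ICR. These cells had been kept for 3 days without FGF2 and GDNF, the usual growth factors of this culture, and then received FGF5 at 100 ng/ml or no FGF5 for 24 hours, with 2 samples each. The second experiment used GFRα1+ spermatogonia, the undifferentiated cells that hold the stem cells of the testis, sorted by their fluorescence from C57BL/6 mice of 2.5 months. All of these mice carried the GFRα1-EGFP knock-in, with 3 samples from wild-type and 3 from Fgf5-/- animals of the go-moja allele. How many animals went into each sorted sample is not given in the sources used here.

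Germ cells silence transposons with piRNAs, small RNAs bound by PIWI proteins. Primary piRNAs are cut and loaded near the mitochondria and in cytoplasmic granules built from Tudor-domain proteins, which hold PIWI proteins through methylated arginines. In the fetal testis, nuclear PIWI proteins guide new DNA methylation to transposons, a task of the DNMT3 enzymes. That methylation is afterwards copied at each division by DNMT1 with UHRF1.

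Sequences upstream of 4 genes named in the values below are shown as description only. Tex19.1 was the member that differed most between the cultures, Tet2 and Tdrd9 had the largest positive and negative differences between cultured and sorted cells, and Ddx4 was a member with nearly the same level on all 10 arrays. Each is the 250 bases before the annotated start in RefSeq on GRCm38.p6, written 5' to 3' on the gene's strand. In the first pair the capitals mark CG dinucleotides, 15 upstream of Tex19.1 (chr11:121145893-121146142, plus strand) and 51 upstream of Tet2 (chr3:133544391-133544640, minus strand).
Tex19.1: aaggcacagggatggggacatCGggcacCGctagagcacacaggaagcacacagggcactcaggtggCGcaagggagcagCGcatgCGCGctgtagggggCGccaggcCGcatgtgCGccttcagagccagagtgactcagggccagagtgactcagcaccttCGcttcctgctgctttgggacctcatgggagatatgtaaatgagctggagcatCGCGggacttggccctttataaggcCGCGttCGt
Tet2: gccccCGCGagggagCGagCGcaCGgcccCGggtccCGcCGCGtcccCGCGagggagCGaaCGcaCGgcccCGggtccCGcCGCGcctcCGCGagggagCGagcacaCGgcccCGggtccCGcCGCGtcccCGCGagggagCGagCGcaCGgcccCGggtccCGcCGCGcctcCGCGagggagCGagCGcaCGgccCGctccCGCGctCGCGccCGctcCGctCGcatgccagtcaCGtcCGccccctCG
In the second pair the capitals mark the palindromic E-box CACGTG, present 2 times upstream of Tdrd9 (chr12:111971309-111971558, plus strand) and 1 time upstream of Ddx4 (chr13:112652311-112652560, minus strand).
Tdrd9: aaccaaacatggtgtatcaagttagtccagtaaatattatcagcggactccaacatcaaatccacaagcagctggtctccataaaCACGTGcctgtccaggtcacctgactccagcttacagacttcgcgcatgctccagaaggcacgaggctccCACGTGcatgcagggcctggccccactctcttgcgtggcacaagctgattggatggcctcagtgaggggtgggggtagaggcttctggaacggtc
Ddx4: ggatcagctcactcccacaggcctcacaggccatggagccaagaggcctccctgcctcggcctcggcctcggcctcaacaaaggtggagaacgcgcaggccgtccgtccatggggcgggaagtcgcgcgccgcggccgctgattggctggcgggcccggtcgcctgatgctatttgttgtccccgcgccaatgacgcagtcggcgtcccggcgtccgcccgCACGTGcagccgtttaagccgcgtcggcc

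RefSeq promoters of 300 bases, from 250 before to 50 after the start, were at hand for 20 of the 24 piRNA genes and all 11 methylation genes. Piwil2, Tdrd6, Rnf17 and Morc1 had no entry. The E-box letters CACGTG, which read the same on both strands, stood in a promoter of 10 of those 20 piRNA genes (50%), namely Piwil1, Mael, Mov10l1, Ddx4, Tdrd1, Tdrd9, Pld6, Fkbp6, Wdr77 and Stk31. In the methylation list Dnmt3a, Dnmt3l and Ehmt2 held them, 3 of 11 genes (27.3%). Over all 27025 genes of the same table the share was 8.09%, counting a gene with several starts if any of them held the letters. An E2F motif, GGCGGGAA or TTCCCGCC on the other strand, stood in Ddx4 and Uhrf1, against 2.52% of all genes. The numbers of CG dinucleotides in the 300 bases were 57 for Tet2, 38 for Ddx4, 16 for Tex19.1 and 10 for Tdrd9, against a median of 7 over all 32851 promoters. These letter matches describe the sequence and were tied to no measurement of binding or methylation. The 10 genes with the E-box took every course in the comparison of cultured with sorted cells given below, with Mael higher, Tdrd9 lower and Ddx4 not passing the test.

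Levels are given as log2 of the probe's signal minus the log2 of its array's 75th percentile signal, so that a level of 0 equals that percentile, a step of 1 is a 2-fold change, and levels of different probes are not comparable with each other. A probe was called well above background on an array by the scanner software's own flag. The share of the 55681 probes so flagged ran from 55.3% to 65.9% of an array. All 15 markers fixed for undifferentiated spermatogonia were well above background on all 10 arrays, and so were 6 to 8 of 10 spermatid markers and 4 to 6 of 8 Sertoli cell markers on each array. Acrv1 and Odf1 of the spermatid list and Amh and Fshr of the Sertoli list were at background on all arrays. The Fgf5 probe was at background in all 3 wild-type samples (-5.47, -6.59 and -6.66), so it could not check the genotype. In the library labelled Fgf5-/- replicate 1 it was well above background at -3.42, against -6.83 and -6.90 in replicates 2 and 3, and whether the probe lies in the altered part of the gene is not given in the sources used here. That library also stood apart over the whole array. It was the lowest of the 6 sorted samples for 37.5% of the probes tested, and for 14 of the 24 piRNA genes and 1 of the 11 methylation genes. For this reason values of the genotype comparison are given with and without it.

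Of the 35 genes, 34 were well above background on all 10 arrays. Tdrd6, a Tudor protein of late germ cell granules, was above background on 8, missing in both culture samples numbered 1.

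**Figure D1:**
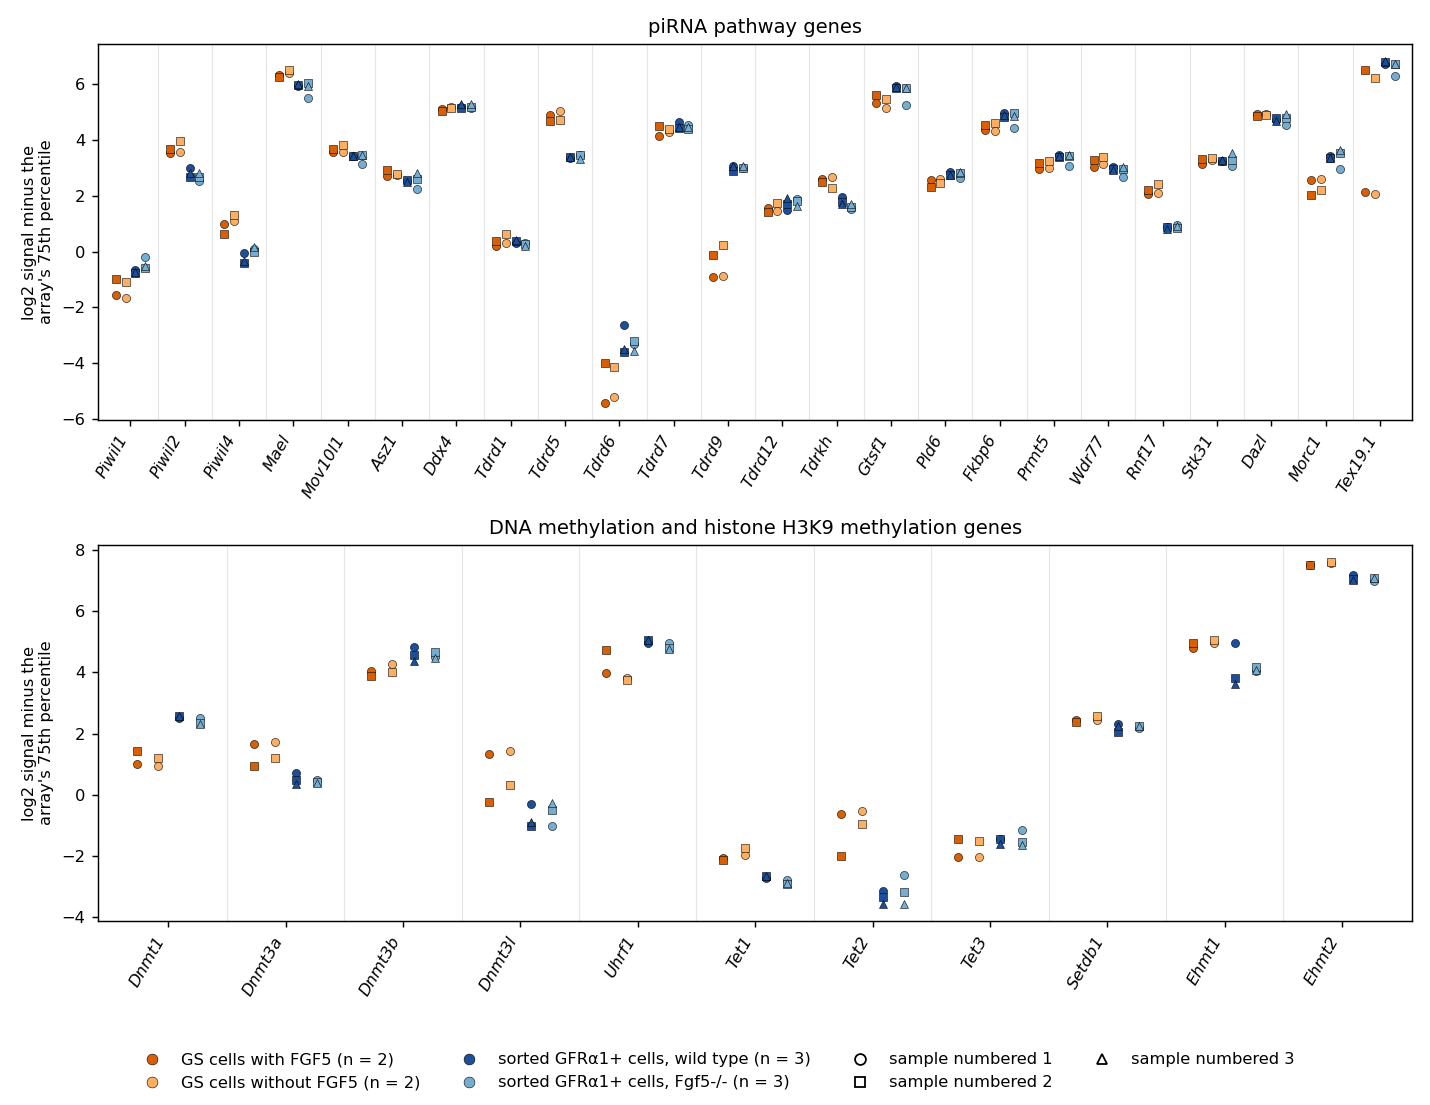
Level of each gene in each of the 10 samples, on a log2 axis as signal minus the array's 75th percentile, for the piRNA list (top) and the methylation list (bottom). Colours mark the 4 groups and shapes the sample numbers. The samples of a group lie close together for most genes, while Tex19.1 stands at 2.12 or lower in the culture samples numbered 1 and at 6.21 or higher in all others.

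In GS cells, 24 hours of FGF5 called no gene of either list. Limma called none of the 34612 probes tested (0%) at an adjusted p under 0.05, with 882 probes under an unadjusted 0.05 and a smallest adjusted p of 1.0. None of the 34 members tested was under an unadjusted 0.05. On the same arrays, and outside the members, Etv5, a transcription factor gene of the GDNF and FGF response in these cells, had levels of 3.05 and 4.32 with FGF5 against 0.51 and -0.99 without, a difference of 3.92 (SE 0.66) with an adjusted p of 1.0. Of the 23 piRNA genes tested, 18 had a lower and 5 a higher mean with FGF5, and the median difference was -0.09 on the log2 scale, against -0.03 over all probes tested. Of the 11 methylation genes, 8 had a lower and 3 a higher mean, with a median of -0.13.

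Groups that did not overlap were found in both lists. In the piRNA list, 3 genes had both FGF5 samples below both others and none had both above, where 14.5% and 8.18% of all probes did so. Piwil4 encodes MIWI2, the nuclear PIWI protein of the fetal germ line. The paper also uses it as a marker of differentiation-primed spermatogonia and names it among the genes lowered by FGF5 in GS cells. Piwil4 levels here were 0.97 and 0.64 with FGF5 and 1.11 and 1.31 without, a difference of -0.41 (SE 0.20, n = 2 and 2). Mael, needed for transposon silencing, had 6.33 and 6.24 with FGF5 and 6.41 and 6.52 without, a difference of -0.17 (SE 0.16). Ddx4, the germ cell RNA helicase related to Drosophila vasa, had 5.09 and 5.03 with FGF5 and 5.17 and 5.13 without, a difference of -0.09 (SE 0.16). In all 3 genes the 95% interval of the difference held 0.

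Of the 11 genes in the methylation list, 1 had both FGF5 samples above both others and 4 had them below. Over all probes the shares were 8.18% above and 14.5% below. Uhrf1, which brings DNMT1 to newly copied DNA, had 3.98 and 4.74 with FGF5 and 3.82 and 3.74 without, a difference of 0.58 (SE 0.29). Most of this came from 1 FGF5 sample, since the other lay only slightly above the samples without FGF5. Tet1, which oxidises methylcytosine, had -2.09 and -2.15 with FGF5 and -1.96 and -1.76 without, a difference of -0.26 (SE 0.17). Its second probe differed by 0.24 (SE 0.28), the other way. Ehmt1 and Setdb1, both H3K9 methyltransferases, were the next. Ehmt1 had 4.79 and 4.96 with FGF5 and 4.97 and 5.05 without, a difference of -0.13 (SE 0.17). Setdb1 had 2.446 and 2.39 with FGF5 and 2.448 and 2.56 without, a difference of -0.09 (SE 0.16), so its groups were nearly tied at their closest samples. Ehmt2, the partner of Ehmt1, was the remaining one at -0.08.

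None of the other members passed the test either. The differences with FGF5 were 0.12 for Piwil1, -0.16 for Piwil2, -0.08 for Mov10l1, 0.04 for Asz1, 0.07 for Tdrkh, -0.10 for Pld6 and 0.16 for Gtsf1, all genes of piRNA making or PIWI action. Among the Tudor genes they were -0.18 for Tdrd1, -0.10 for Tdrd5, -0.01 for Tdrd7, -0.21 for Tdrd9, -0.11 for Tdrd12, -0.12 for Rnf17 and -0.09 for Stk31. For the arginine methyltransferase Prmt5 and its partner Wdr77 they were -0.07 and -0.11. The remaining piRNA list gave -0.03 for Dazl, -0.11 for Morc1, a difference rounding to 0 for Fkbp6 and 0.18 for Tex19.1. Tex19.1 had an SE of 2.0, so that its 95% interval ran from -5.07 to 5.44. This width came from a gap between the samples numbered 1 and 2 that both conditions shared. Its levels in that order were 2.12 and 6.52 with FGF5 and 2.06 and 6.21 without, and this fit did not pair samples by number. For the DNA methyltransferases the differences were 0.14 (Dnmt1), -0.15 (Dnmt3a), -0.19 (Dnmt3b) and -0.34 (Dnmt3l), and for the other TET genes -0.57 (Tet2, SE 0.50) and 0.02 (Tet3). Apart from Tex19.1, the widest intervals belonged to Dnmt3l, from -2.04 to 1.37, and Tet2, from -1.89 to 0.74.

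**Figure D2:**
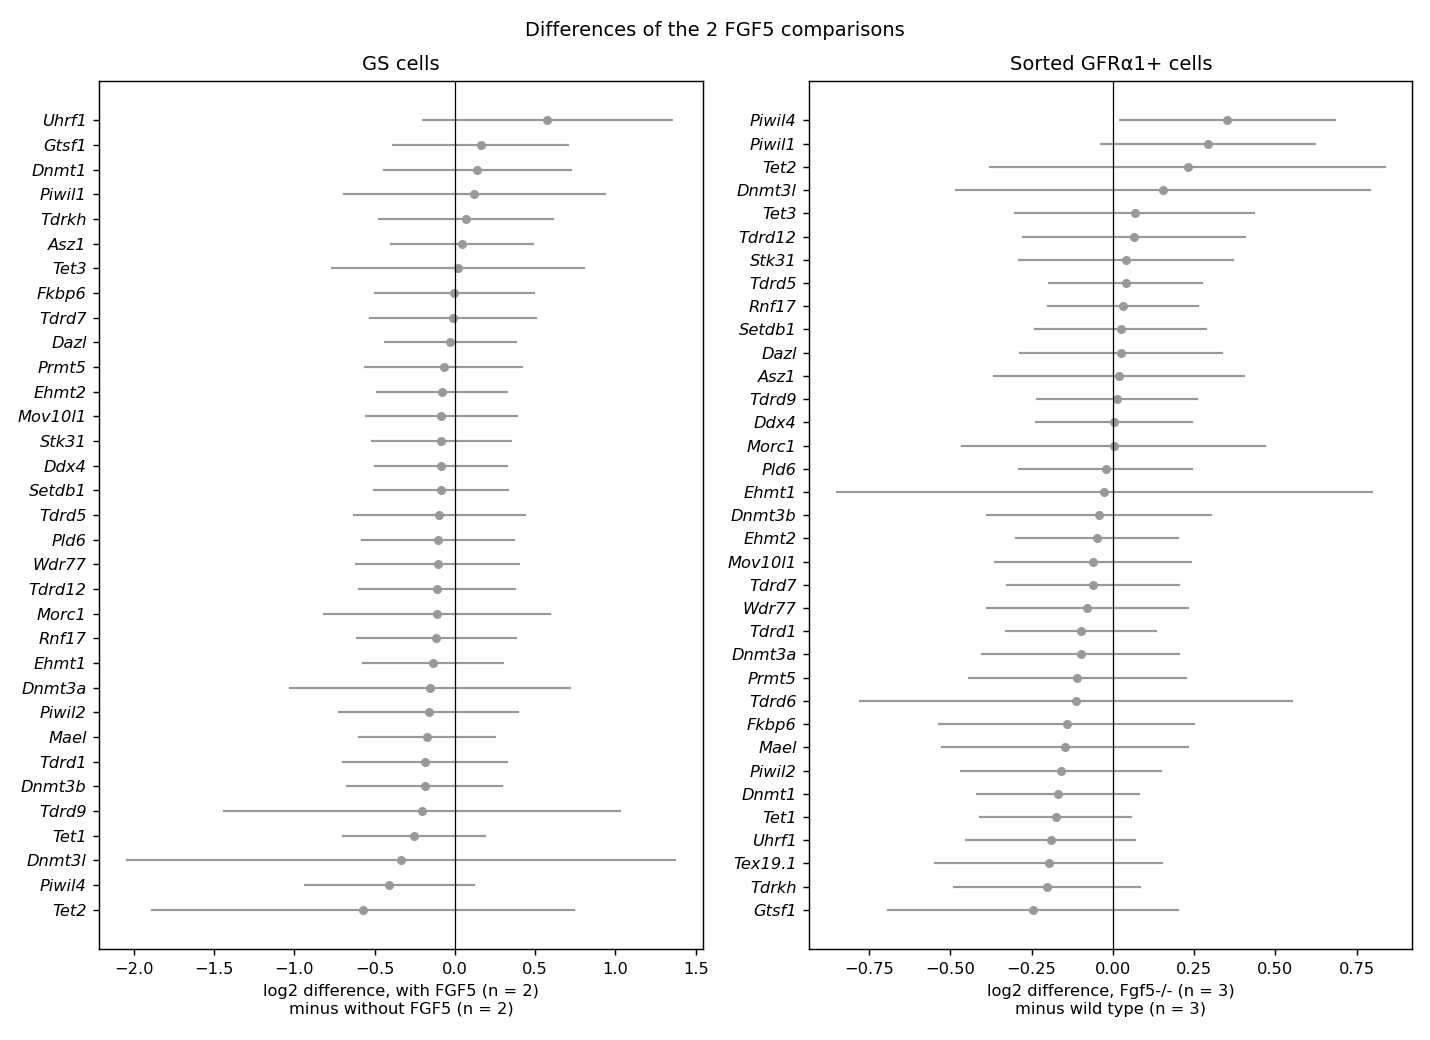
Log2 difference of each gene with its 95% interval, for FGF5 in GS cells (left, n = 2 and 2) and for the Fgf5 genotype in sorted cells (right, n = 3 and 3), with 0 as the black line. Tex19.1 (SE 2.0) and Tdrd6 (not tested) are left out on the left, and no gene on either side passed an adjusted p of 0.05.

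The sorted cells gave a related but different question, whether loss of Fgf5 in the animal changed these genes in GFRα1+ cells. The paper proposes that each such cell in Fgf5-/- mice still gets a largely unchanged FGF signal. No member was called. Limma called 0 of 30285 probes (0%), with 2055 under an unadjusted 0.05 and a smallest adjusted p of 0.728. In the piRNA list 11 genes had a higher and 13 a lower mean in Fgf5-/- cells, and in the methylation list 4 and 7. The median difference was -0.04 in both lists and -0.03 over all probes. Without the library labelled Fgf5-/- replicate 1, the medians were 0.02 in the piRNA list and -0.02 in the methylation list. Over the whole array 6 probes were then called, with 5 without Fgf5-/- replicate 3 and 1 each without wild-type replicate 2 or 3, none of them a member.

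The groups did not overlap for 2 piRNA genes that were higher and 3 that were lower in Fgf5-/- cells, where 7.01% and 9.2% of all probes were so. Piwil4 had -0.05, -0.43 and -0.34 in wild-type and 0.09, -0.03 and 0.18 in Fgf5-/- cells, a difference of 0.35 (SE 0.14), and it was the single member under an unadjusted 0.05. It stayed at 0.35 without the library labelled Fgf5-/- replicate 1, with an adjusted p of 0.575. Piwil1 encodes MIWI, the PIWI protein of meiotic and later cells. It had -0.65, -0.78 and -0.75 in wild-type and -0.19, -0.59 and -0.51 in Fgf5-/- cells, a difference of 0.29 (SE 0.14) that was 0.17 without that library. Of the 3 lower genes, Gtsf1 and Tex19.1 were lowest in the same library. Gtsf1, a zinc finger partner of PIWI proteins, had 5.94, 5.88 and 5.90 in wild-type and 5.25, 5.86 and 5.86 in Fgf5-/- cells. Its difference of -0.25 (SE 0.19) was -0.04 without it. Tex19.1, a germline gene of genome defence, had 6.73, 6.79 and 6.82 against 6.30, 6.73 and 6.72, a difference of -0.20 (SE 0.15) that was -0.06 without it. Tdrd1 was the third, at -0.10 with that library and -0.11 without it.

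In the methylation list no gene was wholly higher and 2 were wholly lower, where 7.01% and 9.2% of all probes were so. Tet1 had -2.72, -2.68 and -2.67 in wild-type and -2.79, -2.93 and -2.88 in Fgf5-/- cells, a difference of -0.18 (SE 0.10) that was -0.21 without the library named above. Dnmt1, the maintenance methyltransferase, had 2.499, 2.59 and 2.59 in wild-type and 2.498, 2.35 and 2.31 in Fgf5-/- cells. Its groups were thus nearly tied at their closest samples. The difference was -0.17 (SE 0.10), and -0.22 without the library named above. Uhrf1 overlapped by a narrow margin, with a difference of -0.19 (SE 0.11) that was -0.25 without that library. Adjusted p values without it were 0.545 for Tet1, Dnmt1 and Uhrf1.

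None of the other members was called. Genotype differences were -0.16 for Piwil2, -0.15 for Mael, -0.06 for Mov10l1, 0.02 for Asz1, -0.02 for Pld6, -0.20 for Tdrkh, -0.14 for Fkbp6, 0.02 for Dazl and 0.04 for Stk31, and they rounded to 0 for Ddx4 and Morc1. For the Tudor genes they were 0.04 (Tdrd5), -0.11 (Tdrd6), -0.06 (Tdrd7), 0.01 (Tdrd9), 0.06 (Tdrd12) and 0.03 (Rnf17), and for Prmt5 and Wdr77 -0.11 and -0.08. In the methylation list they were -0.10 (Dnmt3a), -0.04 (Dnmt3b), 0.15 (Dnmt3l), 0.23 (Tet2), 0.07 (Tet3), 0.02 (Setdb1), -0.03 (Ehmt1) and -0.05 (Ehmt2). Ehmt1 had the widest interval, from -0.85 to 0.80, because wild-type sample 1 stood at 4.95 against 3.81 and 3.62 in the other two. Its second probe had an SE of 0.11 and a difference of -0.04.

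Piwil4 and Tet1 were the members whose groups did not overlap in either experiment. Piwil4 was lower with FGF5 and higher in Fgf5-/- cells, as were 0.96% of the 29059 probes tested in both. Tet1 was lower in both, as were 0.788% of them. Neither gene was called in either comparison.

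The levels of the cultured and the sorted cells were then set side by side, 4 samples against 6. The fit counted the 4 culture samples as independent, and no block for the replicate number was fitted here. Same-numbered cultures shared differences given below, and whether they mark the same culture is not stated. If they do, the SEs and p-values of this comparison are too small. In this comparison the material, the strain background and any effect of slide or scan session cannot be told apart. All cultured samples came from the first experiment and all sorted samples from the second. Limma called 24243 of 35826 probes, with 41.9% higher and 25.7% lower in culture, and the median difference over all probes was 0.26. Against this background, 8 of 24 piRNA genes were higher, 8 were lower and 8 were not called, with a median of -0.06. That median was 0.05 under quantile normalization and 0.08 with the 75th percentile taken over probes above background on all arrays. In the methylation list 7 of 11 were higher, 3 lower and 1 not called, with a median of 0.48. With that percentile base 10 piRNA genes were called higher and 4 lower. In the methylation list Dnmt3a, Dnmt3l, Tet1, Tet2 and the 3 H3K9 genes were higher in culture, and Dnmt3b and the maintenance pair Dnmt1 and Uhrf1 were lower.

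**Figure D3:**
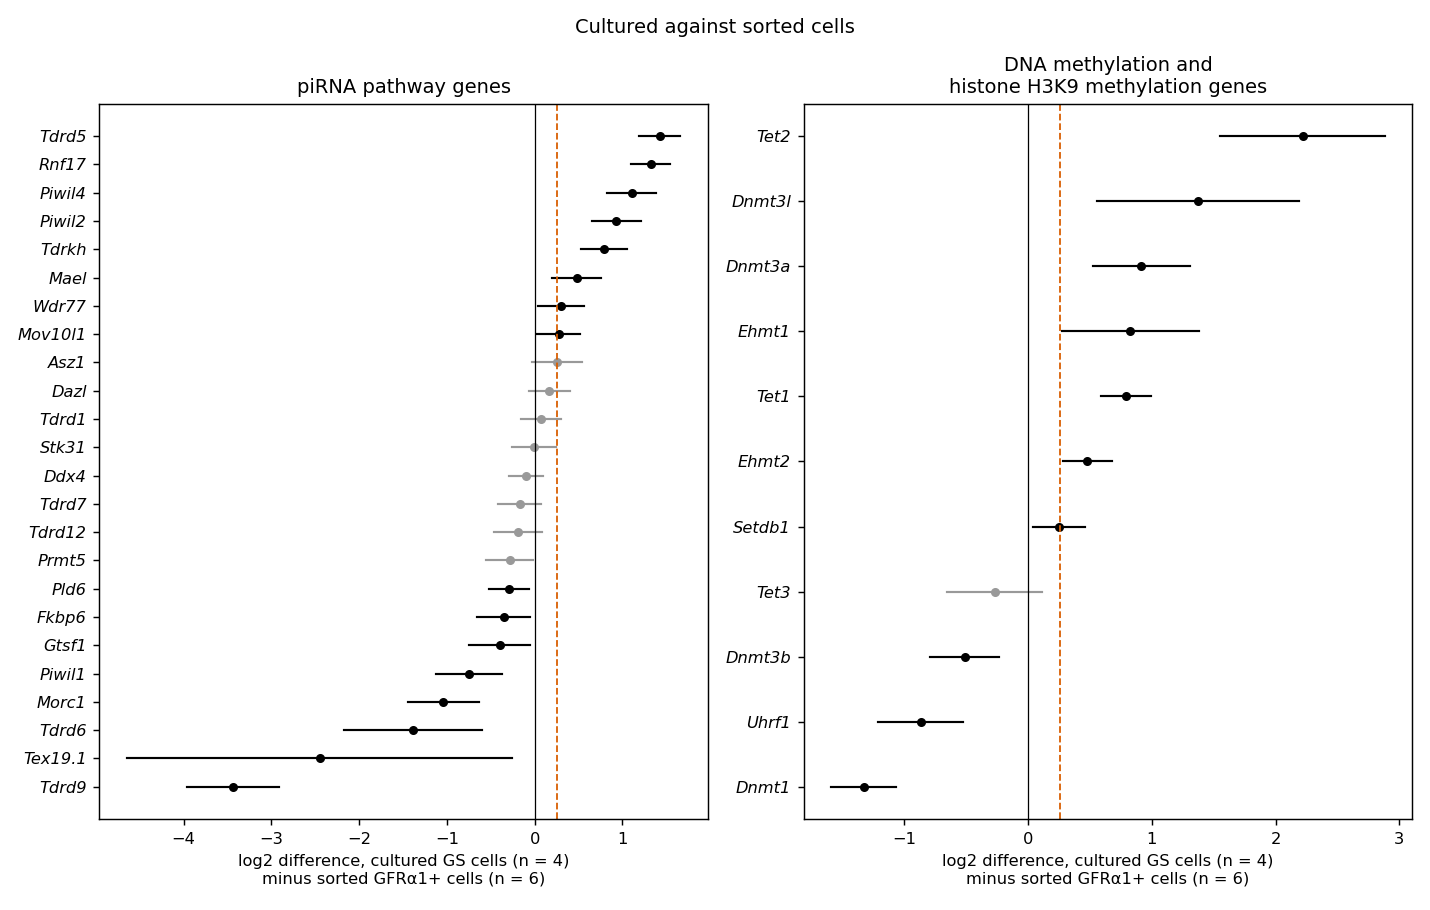
Log2 difference of cultured (n = 4) minus sorted (n = 6) cells with its 95% interval for each gene of the piRNA list (left) and the methylation list (right). Black marks an adjusted p under 0.05, grey the others, the solid line is 0 and the dashed line is the median of all probes tested, 0.26. Tdrd9 at -3.44 and Tet2 at 2.22 are the extremes of the lists.

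Among the PIWI genes, Piwil2 and Piwil4 rose and Piwil1 fell in culture. Piwil2, which encodes MILI, had 3.53 and 3.66 with FGF5, 3.55 and 3.97 without, 2.98, 2.69 and 2.82 in wild-type and 2.53, 2.67 and 2.80 in Fgf5-/- cells. All 4 cultures lay above all 6 sorted samples, with a difference of 0.93 (SE 0.12, adjusted p = 0.000235). The Piwil4 values listed above likewise separated all cultures, at 0.64 or more, from all sorted samples, at 0.18 or less. Its difference was 1.1 (SE 0.12, adjusted p = 9.67e-05), a 2.15-fold higher signal. Piwil1 ran from -1.67 to -0.98 in culture and from -0.78 to -0.19 in sorted cells, a difference of -0.75 (SE 0.17, adjusted p = 0.00398).

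The Tudor genes split most widely. Tdrd9, a helicase with a Tudor domain that acts with MIWI2, had -0.93 and -0.13 with FGF5, -0.87 and 0.22 without, 3.06, 2.90 and 3.07 in wild-type and 3.01, 2.99 and 3.06 in Fgf5-/- cells. The sorted samples lay between 2.90 and 3.07, and the signal in culture was 10.8-fold lower (-3.44, SE 0.23, adjusted p = 8.89e-06). Its probe lay on mm9 at chr12:113305826-113305885, plus strand. Tdrd5, which is needed for granule assembly, went the other way, with 4.88 and 4.66 with FGF5, 5.04 and 4.70 without, 3.35, 3.38 and 3.39 in wild-type and 3.45, 3.47 and 3.33 in Fgf5-/- cells. That was 2.68-fold higher in culture (1.42, SE 0.10, adjusted p = 1.31e-05), and its other 2 probes differed by 1.58 and 1.51. Rnf17, a Tudor protein with a RING finger, had 2.08 and 2.21 with FGF5, 2.11 and 2.41 without and lay between 0.82 and 0.94 in all sorted samples. It was 2.5-fold higher in culture (1.32, SE 0.10, adjusted p = 1.31e-05). Tdrd6 had -5.42 and -3.98 with FGF5, -5.20 and -4.13 without, -2.62, -3.59 and -3.51 in wild-type and -3.30, -3.19 and -3.57 in Fgf5-/- cells. With only 2 of 4 cultures above background, its difference of -1.39 (SE 0.35, adjusted p = 0.00695) rested partly on signals at background, and it was -0.23 with an adjusted p of 0.107 under normexp background correction. Tdrkh, which acts in trimming piRNAs at mitochondria, was higher by 0.79. The granule genes Tdrd1 (0.07), Tdrd7 (-0.17) and Tdrd12 (-0.19) were not called.

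Morc1, an ATPase gene needed for transposon methylation, had 2.56 and 2.01 with FGF5, 2.58 and 2.21 without, 3.42, 3.36 and 3.36 in wild-type and 2.95, 3.54 and 3.65 in Fgf5-/- cells. It was 2.06-fold lower in culture (-1.04, SE 0.18, adjusted p = 0.00094), without overlap. Mael rose by 0.48 (adjusted p = 0.00763). The called differences of the other piRNA genes were small, at 0.30 for Wdr77, 0.28 for the helicase gene Mov10l1, -0.40 for Gtsf1, -0.35 for the cochaperone gene Fkbp6 and -0.29 for the nuclease gene Pld6, with adjusted p values from 0.029 to 0.0487. The 0.30 and 0.28 lay close to the median of 0.26 over all probes. Each of these 5 calls was lost without most single libraries. Mov10l1 kept its call only without GS cells without FGF5 replicate 1 or the library labelled Fgf5-/- replicate 1, and Gtsf1 and Fkbp6 only without GS cells without FGF5 replicate 2 or that Fgf5-/- library. Pld6 kept its call without either culture sample numbered 1 or that Fgf5-/- library, and Wdr77 without either culture sample numbered 1 or Fgf5-/- replicate 3. A second Fkbp6 probe differed by -2.48 (adjusted p = 9.24e-06), far from the -0.35 of the brighter one. Not called were the mitochondrial Asz1 (0.25), Ddx4 (-0.10), Prmt5 (-0.29), Stk31 (-0.01) and Dazl (0.17), an RNA-binding regulator of germ cell translation. Ddx4 was the steadiest of the 35, from 5.03 to 5.28 over all 10 samples.

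Tex19.1 was called lower in culture, but only the cultures numbered 1 were low. Its levels were 2.12 and 6.52 with FGF5 and 2.06 and 6.21 without, against 6.30 to 6.82 in the sorted cells. The mean difference of -2.45 (SE 0.96) had an adjusted p of 0.0485. Leaving out 1 library at a time, the difference ran from -3.55 to -1.35, and the call was kept only without a culture sample numbered 2, with FGF5 or without. The cultures were also divided by sample number, a step chosen after these values were seen, so no p-value is given here. Those numbered 1 differed from all sorted samples by -4.59 and those numbered 2 by -0.31. Its probe lay on mm9 at chr11:121009485-121009544, plus strand. Its paralogue Tex19.2, from the wider piRNA list, was low in all 4 cultures, and how far either probe also binds the other gene's transcript was not tested.

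DNA methyltransferases moved in opposite directions. Dnmt1 had 1.01 and 1.42 with FGF5, 0.94 and 1.21 without, and the sorted values given above, from 2.31 to 2.59, so that culture was 2.51-fold lower (-1.33, SE 0.11, adjusted p = 2.84e-05). Uhrf1 was lower with it, at 3.74 to 4.74 in culture and 4.76 to 5.08 in sorted cells (-0.87, SE 0.15, adjusted p = 0.00103), and its second probe was lower by a similar amount (-1.04). The de novo enzymes differed among themselves. Dnmt3a was higher in culture, from 0.95 to 1.73 against 0.36 to 0.72 (0.92, SE 0.17, adjusted p = 0.00163). Dnmt3b was lower on each of its 3 probes (-0.51, -0.74 and -0.72). Dnmt3l, the inactive partner that stimulates the DNMT3 enzymes, had 1.32 and -0.25 with FGF5, 1.42 and 0.33 without, -0.31, -1.02 and -0.91 in wild-type and -1.02, -0.50 and -0.26 in Fgf5-/- cells. The cultures lay above the sorted cells by 1.37 (SE 0.36, adjusted p = 0.00848), although the lowest culture at -0.25 nearly met the highest sorted sample at -0.26. In the same division by number, the cultures numbered 2 alone gave 0.71.

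Tet2, a methylcytosine oxidase like Tet1 and Tet3, had -0.63 and -2.01 with FGF5, -0.54 and -0.96 without, -3.15, -3.37 and -3.59 in wild-type and -2.64, -3.20 and -3.58 in Fgf5-/- cells. It was 4.65-fold higher in culture (2.22, SE 0.29, adjusted p = 0.000236). This probe lay on mm9 at chr3:133126751-133126810, minus strand. The other Tet2 probes were above background on all 4 culture arrays but on only 2 and 0 of the 6 sorted arrays, so no difference is given for them. The other TET genes depended on the probe. Tet1 was higher by 0.79 on its brightest probe (adjusted p = 0.000104) and lower on the second (-0.89, adjusted p = 0.0301), which was above background on 3 of 4 culture and all 6 sorted arrays. Tet3 was not called on its brightest probe (-0.27) but was higher on the second (1.06), which was above background on all 10 arrays. The third Tet3 probe was above background on only 3 of the 6 sorted arrays, so its higher signal in culture rested partly on signal at background. The H3K9 methyltransferases were higher in culture by 0.83 for Ehmt1, 0.48 for Ehmt2 and 0.25 for Setdb1, with adjusted p values of 0.0153, 0.00127 and 0.0394. The median over all probes tested was 0.26, so Setdb1 lay at the shift of the whole array. Ehmt2 was not called under quantile normalization (0.20, adjusted p = 0.153). The Ehmt1 call was lost without GS cells with FGF5 replicate 2 (adjusted p = 0.0505), and its second probe was not called (0.16). The Setdb1 call was kept only without wild-type replicate 1 or the library labelled Fgf5-/- replicate 1.

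In the piRNA list 6 of the 8 higher and 3 of the 8 lower calls passed the test under every alternative tried, and in the methylation list 2 of the 7 higher and 2 of the 3 lower calls did. The piRNA genes were Piwil2, Piwil4, Mael, Tdrd5, Tdrkh and Rnf17, all higher, and Piwil1, Tdrd9 and Morc1, all lower. The methylation genes were Dnmt3a and Tet2, higher, and Dnmt1 and Uhrf1, lower. These alternatives included the division of the cultures by sample number, which was chosen after the values were seen.

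Genes of the same pathways outside the 35 were counted too. No gene of either wider list was called in the FGF5 or the genotype comparison. Between cultured and sorted cells, 41.9% of all probes tested were called higher and 25.7% lower in culture. Of 17 further piRNA genes on the array, 4 were higher and 6 lower. The largest were Ctcfl (0.66), Exd1 (0.56) and Hsp90aa1 (0.45) upwards and Tex19.2 (-6.01), Spocd1 (-1.59) and Ddx39 (-0.44) downwards. Tex19.2 had -0.90 and -2.04 with FGF5 and -0.97 and -2.36 without, against 3.87 to 4.61 in the sorted cells (SE 0.32, adjusted p = 3.25e-06). Of 34 further methylation and silencing genes, 7 were higher, led by Dppa3 (5.30), Zfp57 (1.55) and Suv39h2 (0.68), and 14 were lower, led by Trdmt1 (-1.27), Rnf2 (-1.19) and Gadd45b (-1.14). Dppa3, an egg and germ cell gene that guards methylation in the early embryo, had 1.52 and 1.08 with FGF5, 1.56 and 1.61 without and -4.14 to -3.69 in the sorted cells (SE 0.13, adjusted p = 5.32e-08). Zfp57, whose product binds imprinted regions, was 2.93-fold higher.

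**Figure D4:**
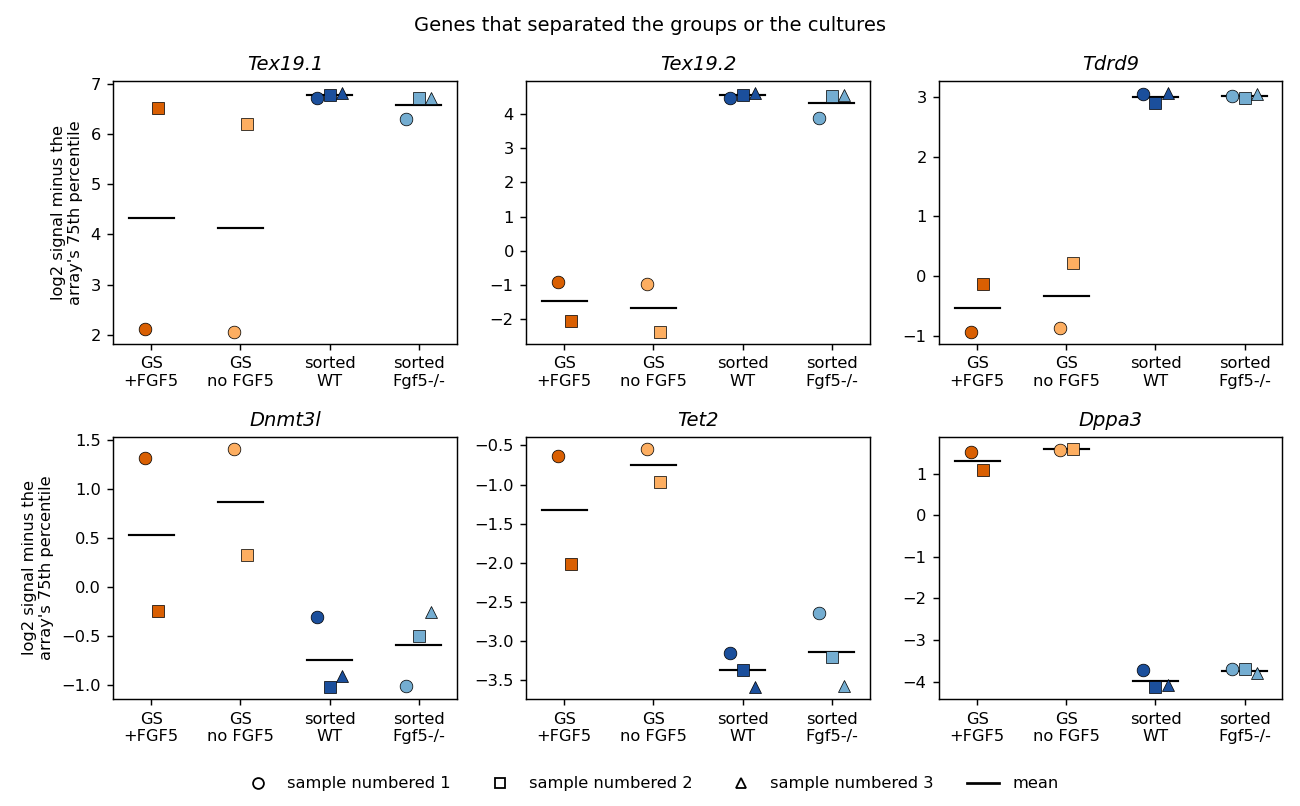
Levels of Tex19.1, Tdrd9, Dnmt3l and Tet2 with the wider-list genes Tex19.2 and Dppa3 in the 4 groups, as log2 signal minus the array's 75th percentile. Each point is a sample, shapes give its number, and bars are group means. Tex19.1 and Dnmt3l differ between the cultures numbered 1 and 2 in both conditions, while Tdrd9 lies at 0.22 or lower in all cultures and at 2.90 or higher in all sorted cells.

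Markers of other germ cell stages and of somatic cells also differed between the materials. The calls below stand against 41.9% of all probes tested that were higher and 25.7% that were lower in culture. The summed signal of 10 spermatid markers, relative to each array's 75th percentile, was 2.15 to 2.71 in culture and 5.70 to 17.6 in sorted cells, with 6 to 8 of them above background. The 12 spermatocyte markers summed to 109 to 119 in culture and 70.8 to 98.5 in sorted cells, with 3 called higher and 5 lower in culture. Their median level went the other way, at -0.61 to -0.21 in culture and 0.12 to 0.52 in sorted cells. Such sums weigh the brightest probes most. The 7 markers of differentiating spermatogonia summed to 71.0 to 93.4 in culture and 130 to 153 in sorted cells. Of these, 2 were called lower in culture, Kit (6.84-fold) and Stra8 (8.84-fold), 0 were called higher and 5 were not called. The median level of the 7 was 2.34 to 2.47 in culture and 1.96 to 2.43 in sorted cells. Of the 15 undifferentiated markers, 9 were called lower and 3 higher in culture, with Gfra1 8.08-fold lower. Of the somatic lists, 5 of 9 fibroblast and peritubular markers tested were called higher and 2 lower (median 1.57), 3 of 4 macrophage and 2 of 2 Leydig cell markers were higher, 3 of 5 Sertoli cell markers were lower and 1 higher, and the 4 endothelial markers split evenly. Summed signals were 22.1 to 32.4 in culture and 28.7 to 35.8 in sorted cells for the fibroblast list, 3.42 to 4.24 and 0.796 to 1.82 for macrophages, 4.99 to 6.65 and 0.424 to 1.96 for Leydig cells, 2.14 to 2.66 and 4.17 to 5.59 for Sertoli cells, and 8.07 to 9.66 and 2.38 to 4.65 for endothelial cells. The macrophage marker Lyz2 and the Leydig cell markers Cyp11a1 and Lhcgr were at background on all arrays. The part of these cell types in the differences of the piRNA and methylation genes was not tested, and fewer cells of a type cannot be told apart from less RNA per cell.

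Samples with the same number in the culture experiment shared differences that the FGF5 contrast does not show. The sample numbered 2 minus the sample numbered 1 had the same sign with and without FGF5 in 28 of the 35 genes, and in 69.7% of all probes tested. Tex19.1 differed by 4.40 with FGF5 and 4.15 without, which is 21.1-fold and 17.8-fold, where the median size over all probes was 0.24 in both conditions. A shift as large as that in both conditions was seen in 10 of 34612 probes (0.0289%). Dnmt3l went the other way by -1.57 and -1.09. Tex19.1 and Dnmt3l were the 2 of 34 members tested (5.88%) that moved 2-fold or more the same way in both conditions, as did 2.23% of all probes. Tdrd6, not tested in that comparison, moved by 1.44 and 1.08. Tdrd9 moved by 0.80 and 1.09, and Tet2 by -1.38 and -0.42. Uhrf1 did not share the pattern, at 0.76 with FGF5 and -0.08 without. The series describes 2 independent experiments with different biological samples, and whether equal numbers mark the same culture is not stated, so these values are descriptions without a test.

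**Figure D5:**
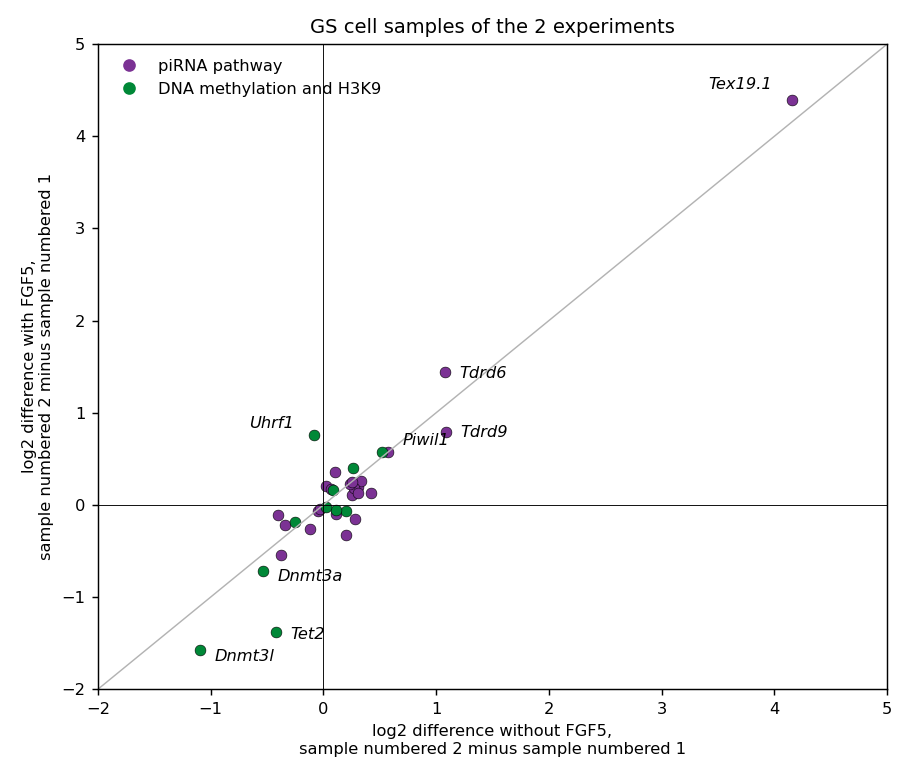
For each gene, the level in the culture sample numbered 2 minus that in the sample numbered 1, without FGF5 (horizontal) and with FGF5 (vertical), in log2 units, with the diagonal marking equal differences. Tex19.1 stands alone at the upper right, at 4.15 and 4.40, and Dnmt3l lies lowest at -1.09 and -1.57.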

How the data were processed

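The arrays were 1-colour Cy3 Agilent mouse arrays, 1 for each of the 10 samples. Per the file headers, the authors extracted background-subtracted signal intensities with Feature Extraction 10.7.1.1 (10.7.3.1 in the submitters' processing notes), and probe coordinates are on mm9. The authors also deposited a table of log2 values, made with a floor of 1 and a 75th percentile shift, whose column medians ran from -3.74 to -3.10 and which differed from the log2 scanner values by a constant on each array. It served as an alternative.

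Here, processed intensities (floor 1) were put on the log2 scale and each array's 75th percentile over non-control spots was subtracted. Of 62976 spots per array, the 117 to 205 spots that the scanner software marked as non-uniform or outliers were left out, and spots of a probe were averaged. Probes entered the test if all samples of some group had them flagged as above background. Groups came from the labels. Limma 3.58.1 in R 4.3.3 (lmFit and eBayes, two-sided) was fitted to the probes that entered each comparison. Benjamini-Hochberg adjustment ran over all of these, with a threshold of 0.05. The FGF5 and the genotype comparison used only their own groups, and the cultured against sorted comparison used all 4 groups. The script was tested on simulated data. The number of arrays limits the precision, and p-values measure the spread between these samples.

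The 35 members and the wider lists were chosen with earlier results of these data known. Values in every sample are given for members called, or else for those whose groups did not overlap in both comparisons and the 4 per list with the largest differences among those not overlapping, and for the 6 largest called differences in each direction between cultured and sorted cells. Further genes of the wider lists are named for the 3 largest called differences in each direction. Alternatives in the signal were quantile normalization, normexp correction with an offset of 50, the deposited values and another percentile base. Others were no or a stricter filter on dim probes, the mean of a gene's probes, an intensity trend and leaving out each array. The replicate number was used as a block in the FGF5 and the genotype comparison only. The cultured against sorted comparison was also run with cells without FGF5 against wild-type only. Promoters came from RefSeq on GRCm38.p6.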

Additional observations from a re-analysis of the deposited data

How the results depend on the processing

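No member was called in the FGF5 or the genotype comparison under any alternative, while the sign of an uncalled difference changed at least once in 23 and 24 members. In the genotype comparison, quantile normalization moved the median to 0.0548 in the piRNA list and 0.0801 in the methylation list, and leaving out single arrays gave a methylation median of -0.153 to 0.0734 and 0 to 6 called probes over the array (1 each without wild-type replicate 2 or 3, 6 without Fgf5-/- replicate 1 and 5 without Fgf5-/- replicate 3). Between cultured and sorted cells, the 8 piRNA genes called lower became 4 with the percentile taken over probes above background on all arrays, 4 with no filter on dim probes, 5 for cells without FGF5 against wild-type, and 4 to 8 when single arrays were left out. In an alternative chosen after seeing the data, cultures numbered 1 alone gave 5, and those numbered 2 alone gave 4, with 4 methylation genes called higher. Tet3 turned to 0.67 as the mean of its probes. Of 734 values of single genes in that comparison, 621 kept their direction and side of the threshold, 100 lost a call, 12 gained one and 1 reversed. The median difference over all probes was 0.12 under quantile normalization, 0.27 under normexp correction, 0.21 in the deposited values and 0.39 with the other percentile base. The cause was not tested. Tdrd6 in culture was the value most limited by signal over background.

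The labels do not say that equal replicate numbers share a culture or a day. Deviations from the group means correlated at 0.64 between same-numbered cultures. With 2 samples in each culture group both pairs must give the same correlation, so they are not separate values. Between same-numbered sorted samples, a separate experiment, the correlations were -0.42, -0.16 and -0.15. The main fits did not take the numbers as pairs because the labels do not state it. The correlations cannot decide whether the cultures were paired. With the replicate number as a block, 0 probes were called in the FGF5 comparison (smallest adjusted p 0.196) and 0 in the genotype comparison (0.885), as without it.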
